A study of Mus musculus with 4 samples.

Results

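The 9 genes described here encode phospholipase C gamma and the proteins that act around it at the inner face of the lymphocyte membrane: *Plcg1*, *Plcg2*, *Prkcq*, *Prkca*, *Lat*, *Lcp2*, *Vav1*, *Lck* and *Fyn*. They were chosen by name, as the rows of the count table that carry these symbols, and make up 9 of the 22554 genes in that table. All 9 had a row and all 9 passed the filter on low counts. The RNA came from group 2 innate lymphoid cells (ILC2s), lymphocytes without antigen receptors that make type 2 cytokines, sorted from the lungs of BALB/c mice aged 6 weeks. After isolation the cells of both groups received IL-2, IL-7 and IL-33 in an overnight culture, with vehicle in 2 libraries and with compound 5D in 2. The paper's results give a culture of a day with and without 5D for this sequencing. Its general culture methods give a longer one, so the duration is not certain. Compound 5D inhibits the Orai channels, which are the pores through which calcium enters a cell after its internal stores have been emptied. The comparison asks whether ILC2s cultured with the blocker carried other amounts of mRNA for the machinery that empties those stores. No source used here says whether the libraries came from separate animals or cultures, or from pooled mice, so the p-values measure only the spread between these libraries, which may be technical.

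In T cells, where this machinery is best known, the Src family kinases Lck and Fyn phosphorylate the ITAM motifs of receptor subunits, and Syk family kinases bind there and phosphorylate the adaptor LAT. LAT, together with the adaptor SLP-76 (the product of *Lcp2*) and the exchange factor Vav1, gathers phospholipase C gamma, which Tec family kinases activate. The enzyme splits a membrane lipid into inositol trisphosphate, which opens the calcium stores, and diacylglycerol, which recruits protein kinase C isoforms such as PKC theta (*Prkcq*) and PKC alpha (*Prkca*). ILC2s lack the antigen receptor at the head of this pathway, and many of its parts also serve cytokine, integrin and costimulatory receptors.

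Gene positions are those of the GENCODE M21 annotation on mm10. *Lcp2* lies at chr11:34046920-34092295, *Vav1* at chr17:57279100-57328031, *Fyn* at chr10:39368855-39565381 and *Lat* at chr7:126363824-126369570. *Prkcq* lies at chr2:11172108-11301222, *Prkca* at chr11:107933387-108343928, *Plcg1* at chr2:160731300-160775760, *Plcg2* at chr8:117498291-117635142 and *Lck* at chr4:129548344-129573641. RefSeq start sites gave 10 promoter windows for the 9 genes, with 2 for *Lck*. Of these, 4 are printed as the 250 bases before the start, 5′ to 3′ on the strand of the gene, from RefSeq on GRCm38.p6, the mm10 build. *Lcp2* is shown because its level was the highest of the 9. Both starts of *Lck* are shown because this gene has a proximal and a distal promoter and a level far below that of *Fyn*, and *Plcg2* because its vehicle libraries differed most. Capitals mark the core motif of NFAT, the factor that calcium entry activates (GGAAA), and the GATA motif (AGATAA), on either strand.
*Lcp2*, chr11:34046678-34046927, plus strand: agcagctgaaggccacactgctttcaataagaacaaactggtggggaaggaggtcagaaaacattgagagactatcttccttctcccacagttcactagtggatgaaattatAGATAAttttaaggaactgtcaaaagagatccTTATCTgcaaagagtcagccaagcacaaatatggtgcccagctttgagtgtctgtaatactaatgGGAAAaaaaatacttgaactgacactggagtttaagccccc
*Lck* distal, chr4:129573642-129573891, minus strand: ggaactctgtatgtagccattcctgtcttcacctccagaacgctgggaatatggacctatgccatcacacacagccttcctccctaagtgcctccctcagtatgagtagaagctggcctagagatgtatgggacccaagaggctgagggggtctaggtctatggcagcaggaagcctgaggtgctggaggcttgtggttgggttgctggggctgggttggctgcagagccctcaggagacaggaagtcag
*Lck* proximal, chr4:129558373-129558622, minus strand: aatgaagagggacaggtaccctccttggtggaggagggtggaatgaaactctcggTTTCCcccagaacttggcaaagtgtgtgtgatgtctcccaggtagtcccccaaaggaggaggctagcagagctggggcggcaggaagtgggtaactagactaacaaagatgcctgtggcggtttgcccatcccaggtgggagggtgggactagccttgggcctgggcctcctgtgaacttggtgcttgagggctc
*Plcg2*, chr8:117498025-117498274, plus strand: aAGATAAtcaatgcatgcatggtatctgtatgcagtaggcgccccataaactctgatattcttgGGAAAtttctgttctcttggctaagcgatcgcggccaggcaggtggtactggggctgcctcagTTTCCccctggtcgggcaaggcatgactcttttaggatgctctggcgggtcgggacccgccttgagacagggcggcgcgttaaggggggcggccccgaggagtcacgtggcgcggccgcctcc

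The NFAT core, which does not overlap the other motifs searched in these lines, was found in 4 of the 10 windows and in 55.6% of all 32851 RefSeq windows of this length. The GATA motif was found in 2 of the 10, those of *Lcp2* and *Plcg2*, and in 9.99% of all. The RUNX motif TGTGGT was in 1 window, that of distal *Lck*, against 14.0% of all, while the AP-1 motif TGANTCA and the ETS motif CCGGAAG, which 6.75% and 6.91% of all windows hold, were in none. CpG pairs varied widely, from 0 in the *Lcp2* window and 1 in that of distal *Lck* to 39 in that of *Prkca*, with a median of 6 over all windows. These letters describe the windows, and the gene counts do not tell which start was used.

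The libraries held 23239853 and 20096555 counts with vehicle and 26912708 and 28697265 with 5D. Levels are given as normalized CPM (counts scaled by the upper quartile and by library size), and for comparisons between genes as normalized CPM per kilobase of exon. Libraries of the same group differed by more than counting error, with a chi-square per degree of freedom of 6.05 for vehicle and 6.61 for 5D. The defining ILC2 genes were present in every library: all 12 ILC2 markers had counts in each, *Gata3* was at 1091 to 1108 CPM and *Thy1* at only 8.57 to 13.04. The summed level of this list did not overlap between the groups, at 10800 to 11000 CPM with vehicle and 10200 to 10600 with 5D. Taken singly, 37.6% of all genes tested did not overlap either. The sum rests mostly on *Il5* and *Il2ra*, whose means of 4597 and 1983 CPM were the highest of the 12. At an unadjusted edgeR p under 0.05, *Il2ra*, *Il5*, *Klrg1* and *Thy1* were lower with 5D and *Il1rl1* was higher. These are 4 and 1 of the 12, against 3.84% lower and 3.5% higher over all genes tested. The smallest adjusted p among them was 0.0878, for *Il2ra* at a log2 fold change of -0.23, and the part of these markers in the results was not tested. Since *Lck*, *Lat* and *Zap70* also mark T cells, T cell genes were read in the same libraries. *Cd3d*, *Cd4*, *Cd5* and *Trac*, the constant region of the T cell receptor alpha chain, stayed under 1 CPM in every library, with *Cd4* at 0 counts in all 4, and the antibodies in the study's methods include ones against CD3e, CD5 and TCR beta. *Cd3e* was at 2.76 to 4.13 CPM and *Cd3g* at 21.6 to 24.6, and 2 of the 10 listed T cell genes, *Cd8a* and *Cd8b1*, had no row in the table used here. The summed level of the T cell list was 254 to 271 CPM with vehicle and 271 to 275 with 5D, most of it *Trbc1* and *Trbc2*, whose transcripts are close in sequence. Summed B cell markers were at 15.4 to 20.3 and 15 to 16.6 CPM, most of it *Cd79b*, NK cell markers at 1.35 to 1.81 and 0.332 to 1.5, and myeloid markers at 3.49 to 7.1 and 4.58 to 5.2. Mast cell and basophil markers were at 4.5 to 7.36 and 6.34 to 8.18 CPM with *Ms4a2* at 0 counts, and stromal, endothelial and epithelial markers at 46.8 to 49.9 and 43.5 to 45.5, from *Pecam1* and *Epcam*. In bulk RNA, fewer cells of a type and less RNA per cell cannot be told apart.

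Per kilobase, the adaptor gene *Lcp2* and the exchange factor gene *Vav1* led. *Lcp2* had a mean of 93.6 CPM per kb over the 4 libraries, above 96.2% of the 17291 tested genes with a known length. *Vav1* followed at 57.8 CPM per kb, *Fyn* at 29.03 and *Lat* at 22.1. Lower still were *Prkcq* and the lipases, with *Prkcq* at 7.56 CPM per kb, *Plcg2* at 7.33 and *Plcg1* at 6.37. *Lck* at 2.54 and *Prkca* at 1.46 CPM per kb closed the order, *Prkca* above 42.7% of genes, and the highest member stood 64.3-fold above the lowest. By exon length, the ranges over libraries of *Prkcq* and *Plcg2* overlapped, as did those of *Plcg2* and *Plcg1*, and no other neighbours overlapped. So by this length these neighbours do not differ beyond their spread. When the length of the longest transcript replaced the exon length, 7 of the 9 kept their rank, and *Plcg1* and *Plcg2* changed places. The means were then 13.5 CPM per kb for *Prkcq*, 9.80 for *Plcg1* and 7.33 for *Plcg2*. How far these neighbours lie apart therefore depends on the length.

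**Figure D1:**
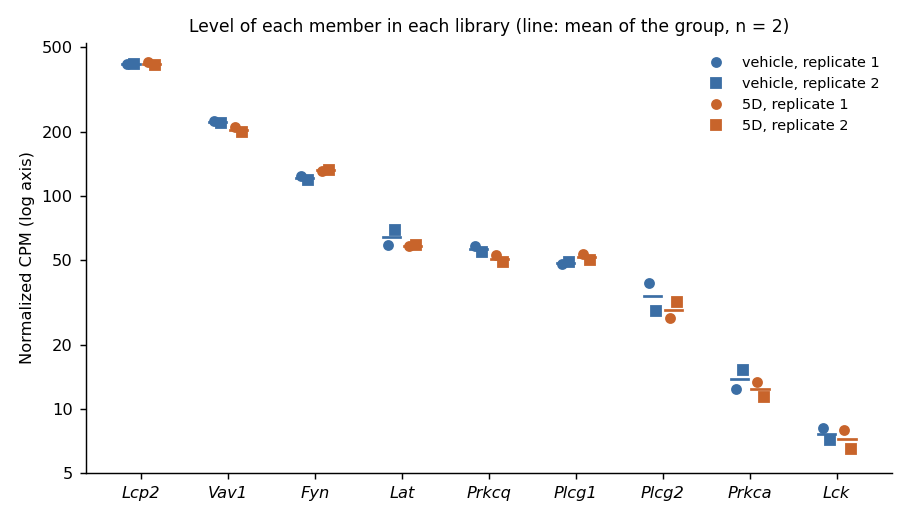
Normalized CPM (log axis) of the 9 genes in the 2 vehicle libraries (blue) and the 2 libraries with 5D (orange), circles for replicate 1, squares for replicate 2 and lines for the group mean. *Lcp2* sits at 410 to 425 in all 4 libraries, and the widest gap between libraries of 1 group is that of *Plcg2* with vehicle, 38.9 against 28.8.

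Within their families, some of these genes supplied nearly all of the mRNA and others little of it. Of the Src family kinases with a row, *Fyn* took 52.2% to 54.6% of the summed level per kb in a library and *Lyn*, a kinase best known from B cells and myeloid cells, 34.7% to 38.8%. *Lck*, the main Src kinase of T cells, took only 3.98% to 5.28%, about as much as *Src* itself at 3.6% to 4.92%. *Vav1* held 91.1% to 92.9% of the Vav family. *Lcp2* had almost no company from *Blnk*, the related adaptor of B cells, at 0% to 0.0254% of the pair. *Lat* had the smaller share of its pair at 20.9% to 25.1%, with *Lat2*, its relative in mast and B cells, at 74.9% to 79.1%. Of the 2621 exon bases of *Lat2*, 952 overlap exons of *Rfc2* on the other strand. The use of strand in counting is not known, so some counts of *Lat2* may belong to *Rfc2*. *Zap70*, the Syk family kinase of T cells, had 98.9% to 99.1% of its pair with *Syk*. Among 9 protein kinase C isoforms *Prkcd*, an isoform that responds to diacylglycerol without calcium, was highest at 28.5% to 30.4%, *Prkcq* had 17.6% to 19.1%, and *Prkca*, a conventional isoform that needs calcium, 3.21% to 3.94%. These families were put together after the values were known, and shares rest on the exon length.

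**Figure D2:**
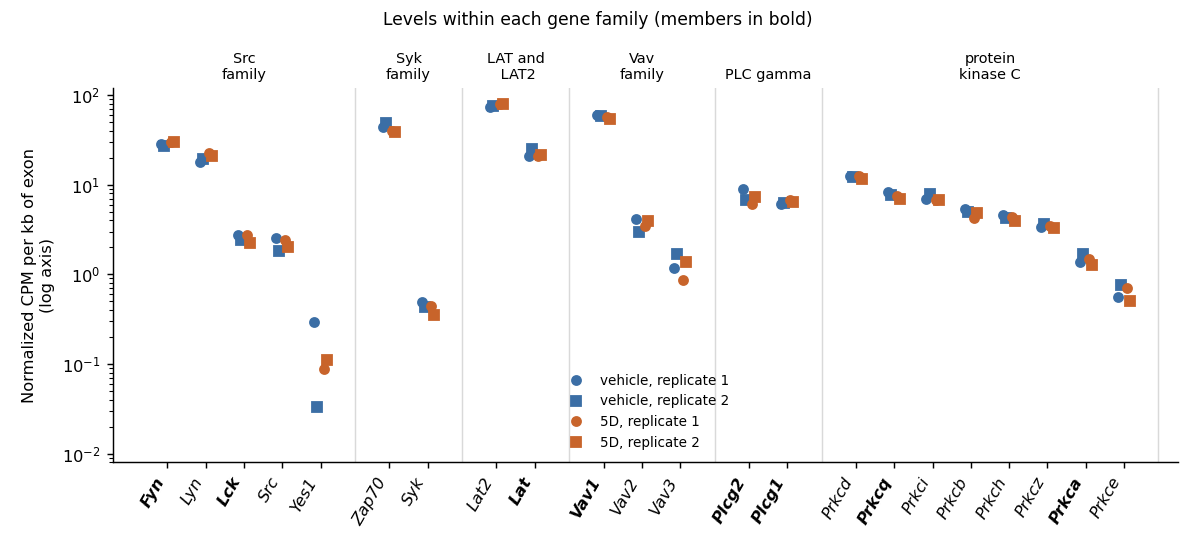
Normalized CPM per kb of exon (log axis) in each library for the families of the 9 genes, which are in bold, with vehicle in blue and 5D in orange; 1 protein kinase C isoform, at 0 counts in 1 library, the pair of *Lcp2* and *Blnk* and the Tec family are not drawn. *Fyn* and *Lyn* lie above *Lck*, and *Zap70* and *Vav1* lie far above the rest of their families in all 4 libraries.

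Ratios inside a library do not depend on its scaling. The level of *Plcg1* per kb was 0.672 and 0.929 times that of *Plcg2* with vehicle and 1.1 and 0.861 times with 5D, which overlap. The mean log2 ratio was -0.34 ± 0.33 (SD, n = 2) with vehicle and -0.038 ± 0.25 with 5D, a difference of 0.30 with p = 0.667 in a two-sided exact permutation test. With the longest transcript as the length, the same ratios were 1.03, 1.43, 1.7 and 1.32, so which isoform is the more abundant depends on the length taken. *Prkcq* was 5.97 and 4.52 times *Prkca* with vehicle and 5.01 and 5.47 times with 5D, a log2 difference of 0.012 with an exact permutation p of 1. By the longest transcript these became 9.95, 7.53, 8.36 and 9.12. *Fyn* was 10.3 and 11.1 times *Lck* with vehicle and 11.1 and 13.7 times with 5D, so that the log2 ratio of *Lck* to *Fyn* differed by -0.20 with an exact permutation p of 0.667. With 2 libraries a group this test cannot reach 0.05, and none of the 3 ratios separated the groups.

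**Figure D3:**
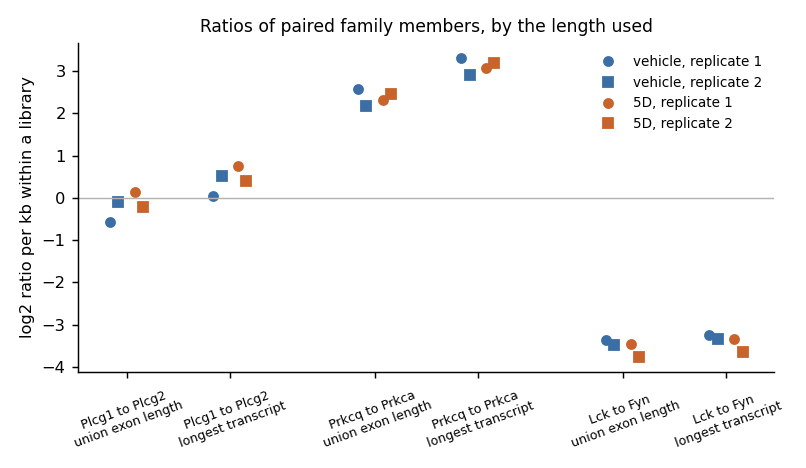
Log2 ratio per kb of *Plcg1* to *Plcg2*, of *Prkcq* to *Prkca* and of *Lck* to *Fyn* within each library, by union exon length and by longest transcript. Vehicle (blue) and 5D (orange) overlap in all 3 ratios, and the *Plcg1* to *Plcg2* ratio lies around or above 0 according to the length.

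Between 5D and vehicle none of the 9 genes was called. Tested by edgeR's quasi-likelihood method, and after a Benjamini-Hochberg correction across 17650 genes, 0 of 9 passed an adjusted p under 0.05, as 17 genes or 0.0963% of all did, and 0 of 9 had an unadjusted p under 0.05, against 7.34% of all, 3.5% higher and 3.84% lower. DESeq2 gave 0 among the 7 for which it returned an adjusted p (none for *Prkca* and *Lck*) and 0 of 9 at an unadjusted p, and limma-voom 0 at an adjusted p and 1, *Vav1*, at an unadjusted p. The log2 fold change was above 0 in 3 and below 0 in 6, with a median of -0.11 against -0.0016 over all genes, 50.4% of which lay below 0. The median of the 9 was -0.0030 without vehicle replicate 1, -0.010 without vehicle replicate 2 and -0.053 without 5D replicate 2. In 4 of the 9, *Plcg1*, *Prkcq*, *Vav1* and *Fyn*, the libraries of the groups did not overlap, which held for 37.6% of all genes. Every 95% interval of the 9 lay between 0.689-fold and 1.29-fold, so a change of 1.5-fold or more lay outside the interval of each. Intervals cover the spread between these libraries only.

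**Figure D4:**
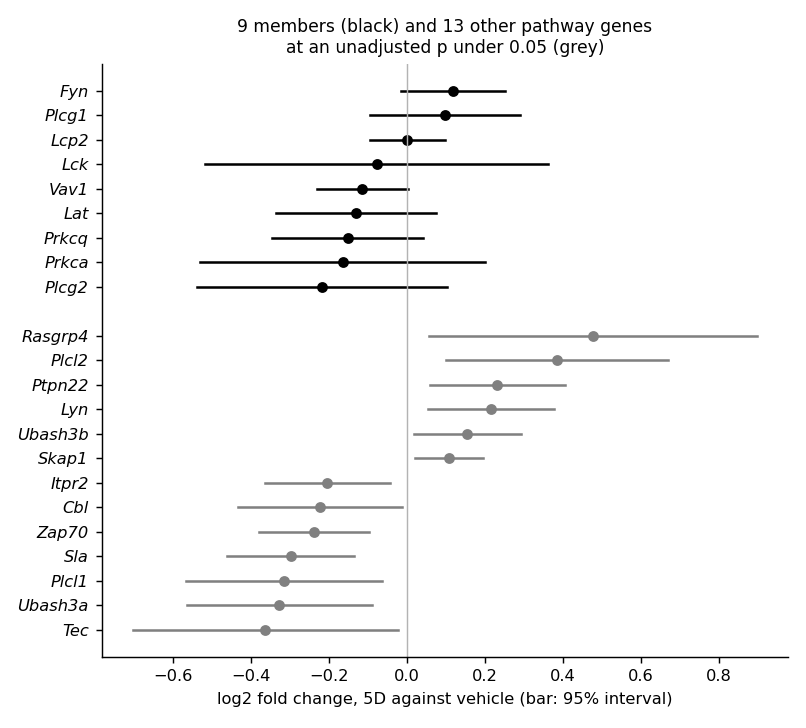
Log2 fold change of 5D against vehicle with its 95% interval for the 9 genes (black) and for 13 other genes of the pathway lists with an unadjusted p under 0.05 (grey; 3 others with few counts are left out). All 9 black intervals include 0, and no gene shown passed an adjusted p of 0.05.

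Of the lipases, *Plcg1*, the isoform of T cells, was at 47.8 and 49.0 CPM with vehicle and 53.5 and 49.98 with 5D. Both 5D libraries lay above both vehicle libraries, by a log2 fold change of 0.098 (SE 0.088, 95% interval -0.094 to 0.29, edgeR adjusted p = 0.878), which ranged from 0.044 without 5D replicate 1 to 0.15 without 5D replicate 2. *Plcg2*, the isoform best known from B cells and mast cells, was at 38.9 and 28.8 CPM with vehicle and 26.6 and 31.8 with 5D. Its groups overlapped, and its log2 fold change was -0.22 (SE 0.15, interval -0.54 to 0.10, edgeR adjusted p = 0.817). The libraries of both groups differed by more than counting error, and the value was -0.099 without 5D replicate 1 and -0.35 without 5D replicate 2. It moved most with vehicle replicate 1. That library held 1.35 times the *Plcg2* level of vehicle replicate 2, with an exact binomial 95% interval of 1.21 to 1.5 for counting error only. Without it the log2 fold change was 0.013, and without vehicle replicate 2 it was -0.42 with an unadjusted edgeR p of 0.00257 and an adjusted p of 0.197. Exons of *Plcg1* overlap those of *Zhx3* and *Gm27206* on the other strand over 627 bases in all, and no source used here says whether counting used the strand, so some of its counts may belong to those genes.

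Of the protein kinases C, *Prkcq*, the isoform that carries receptor signals to NF-kB in T cells, was at 58.3 and 54.4 CPM with vehicle and 52.6 and 48.8 with 5D. The groups did not overlap, at a log2 fold change of -0.15 (SE 0.088, interval -0.35 to 0.041, edgeR adjusted p = 0.767). Transcripts of *Prkcq* share stretches of at least 150 nt at 95% identity with 37 other genes, so its counts are uncertain where reads could be split. *Prkca* was at 12.4 and 15.3 CPM with vehicle and 13.3 and 11.3 with 5D. The groups overlapped, with a log2 fold change of -0.16 (SE 0.17, interval -0.53 to 0.20, edgeR adjusted p = 0.894). Its vehicle libraries rested on 288 and 306 counts, and the value ran from -0.31 without vehicle replicate 1 to -0.010 without vehicle replicate 2, with -0.29 without 5D replicate 1 and -0.053 without 5D replicate 2.

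Of the adaptors, *Lcp2* was the steadiest, at 417 and 418 CPM with vehicle and 425 and 410 with 5D. Its log2 fold change was 0.0011 (SE 0.044, interval -0.095 to 0.098, edgeR adjusted p = 0.999), the narrowest interval of the 9. *Lat*, the membrane platform on which the complex forms, was at 58.6 and 69.5 CPM with vehicle and 57.9 and 59.0 with 5D. Only vehicle replicate 2 stood above the other libraries, and the log2 fold change was -0.13 (SE 0.093, interval -0.34 to 0.074, edgeR adjusted p = 0.828). Without that library it was -0.0068, and without vehicle replicate 1 it was -0.25 with an unadjusted edgeR p of 0.0206 and an adjusted p of 0.318. *Vav1*, which loads small GTPases and supports calcium release, was at 224.6 and 218.8 CPM with vehicle and 210.7 and 198.9 with 5D. The 2 groups were apart, with 5D the lower, at a log2 fold change of -0.11 (SE 0.054, interval -0.23 to 0.0029), with the smallest p of the 9, an edgeR adjusted p of 0.684. It ranged from -0.16 without 5D replicate 1 to -0.076 without 5D replicate 2.

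Of the Src kinases, *Fyn* was at 124.5 and 118.4 CPM with vehicle and 131.4 and 132.3 with 5D. The groups did not overlap, at a log2 fold change of 0.12 (SE 0.061, interval -0.015 to 0.25, edgeR adjusted p = 0.729). *Lck* was at 8.09 and 7.15 CPM with vehicle and 7.96 and 6.51 with 5D, from 143 to 216 counts a library. The groups overlapped, and its interval was the widest of the 9, -0.52 to 0.36 around a log2 fold change of -0.078 (SE 0.20, edgeR adjusted p = 0.974). The sign turned without vehicle replicate 1, at 0.013, and without 5D replicate 2, at 0.059. Over all 9 genes, 9 of the 18 pairs of libraries of the same group differed by more than counting error, at unadjusted 95% intervals. This count was not made for other genes, and the libraries as a whole also differed by more than counting error.

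**Figure D5:**
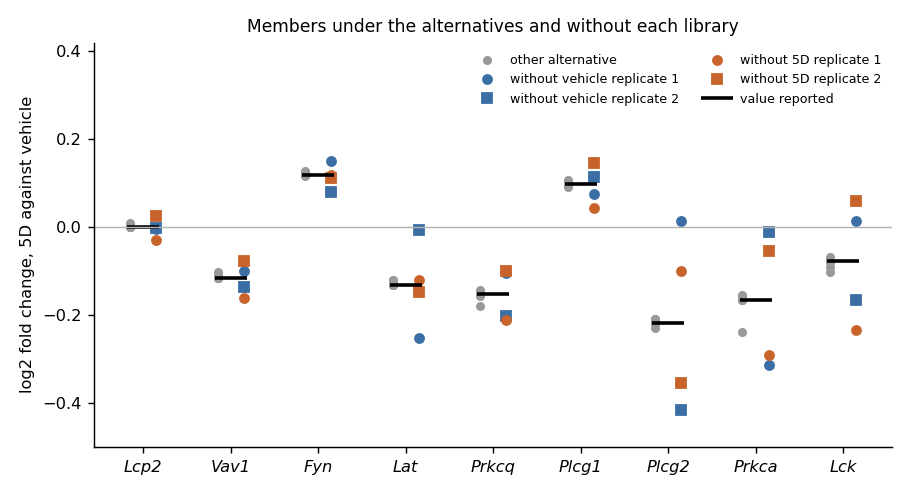
Log2 fold change of the 9 genes as reported (black bar), under 8 other settings (grey) and without each library in turn (blue circle and square, vehicle replicates 1 and 2; orange, 5D replicates 1 and 2). The other settings stay near the reported value, while *Plcg2* runs from -0.42 to 0.013 and *Lck* from -0.23 to 0.059 when a library is left out.

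The other genes of the pathway came from 12 lists with 111 genes, of which 105 had a row and 100 were tested. By edgeR's quasi-likelihood test 0 of the 100 passed an adjusted p under 0.05, where 0.0963% of all genes did. Limma-voom called 0, and DESeq2 called 0 of the 60 for which it returned an adjusted p. At an unadjusted p under 0.05 there were 8 higher and 8 lower genes, which is 16% against 7.34% of all genes, with 3.5% higher and 3.84% lower. The libraries of the groups did not overlap in 43 of the 100, against 37.6%, and the median log2 fold change was 0.0076. The smallest adjusted p was 0.363. Counts of these lists describe them and were not tested against other genes. Some of these genes passed an adjusted p when a vehicle library was left out, in fits that called 180 genes without vehicle replicate 1 and 79 without vehicle replicate 2, against 17 with all libraries.

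Among the other kinases, *Zap70*, which phosphorylates LAT and SLP-76, was at 133.4 and 144.7 CPM with vehicle and 119.9 and 115.7 with 5D. Its log2 fold change was -0.24 (SE 0.065, edgeR adjusted p = 0.440), and without vehicle replicate 1 it was -0.30 with an adjusted p of 0.0349. Without the other libraries it ranged from -0.27 to -0.18, at edgeR adjusted p of 0.506 to 0.817. *Syk*, its relative, had 81 to 114 counts a library and a log2 fold change of -0.20 (interval -0.77 to 0.36). *Tec*, which gives its family the name, was at 24.0 and 21.9 against 20.6 and 15.1 CPM, a log2 fold change of -0.36 (edgeR adjusted p = 0.641). *Lyn* was at 73.9 and 79.0 against 91.2 and 86.2 CPM, a log2 fold change of 0.22 (edgeR adjusted p = 0.554). Of the 8 regulators of Src kinases, the phosphatase *Ptpn22*, which acts on Lck and Fyn, had 70.2 and 78.8 against 89.6 and 85.3 CPM, at a log2 fold change of 0.23 (edgeR adjusted p = 0.553). *Ptprc*, the phosphatase CD45 that removes the inhibitory phosphate of these kinases, had the highest mean CPM of that list and a log2 fold change of 0.072 (edgeR adjusted p = 0.779).

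All 7 other protein kinase C isoforms had a log2 fold change below 0, as did *Prkcq* and *Prkca*, but none had an unadjusted p under 0.05 by edgeR. *Prkcd* had the highest mean CPM of them, with a log2 fold change of -0.040, and *Prkcb*, a conventional isoform, had the smallest p of them at -0.19 (edgeR adjusted p = 0.755). Of the 10 tested phospholipase C genes and relatives outside the gamma pair, 3 were higher and 1 lower at an unadjusted p under 0.05 by edgeR. Over all genes these shares were 3.5% and 3.84%, and 2 of the 3 higher genes rest on few counts. *Plcl2*, a phospholipase C relative without catalytic activity, was at 30.1 and 24.4 against 38.6 and 32.8 CPM, a log2 fold change of 0.38 (edgeR adjusted p = 0.553; without vehicle replicate 1, 0.54 with an adjusted p of 0.0275, and 0.24 to 0.50 without each of the others, at 0.662 to 0.827). *Plcl1*, its paralog, was at 25.8 and 26.6 against 20.97 and 21.05 CPM, a log2 fold change of -0.32 (edgeR adjusted p = 0.566). Of the pair with few counts, *Plcd3* had 3 and 2 counts with vehicle and 10 and 21 with 5D, and *Plch2* had 0 and 0 with vehicle and 19 and 0 with 5D. *Plcb3*, the highest of the list by mean CPM, had a log2 fold change of -0.0094.

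Downstream of the lipase, *Itpr2*, a receptor through which inositol trisphosphate releases calcium from the stores, was at 202.8 and 217.3 CPM with vehicle and 196.6 and 168.0 with 5D. Its log2 fold change was -0.20 (SE 0.073, edgeR adjusted p = 0.566), and without vehicle replicate 1 it was -0.26 with an adjusted p of 0.0491. Without each of the others it ranged from -0.33 to -0.097, at edgeR adjusted p of 0.155 to 0.950. In the diacylglycerol arm, *Rasgrp4*, an exchange factor for Ras, was at 10.9 and 8.50 against 15.5 and 11.6 CPM, a log2 fold change of 0.48 (edgeR adjusted p = 0.621), while *Prkd2*, a kinase that protein kinase C activates, was at 126.1 to 127.9 CPM in all 4 libraries. *Inpp5d*, the lipid phosphatase SHIP, was at 301.5 to 313.5 CPM, with a log2 fold change of -0.021. Of the 15 other adaptors tested, *Skap1*, which links the complex to integrins, passed an unadjusted p of 0.05, at 657.5 and 679.7 against 719.1 and 721.1 CPM (log2 fold change 0.11, edgeR adjusted p = 0.566). None of the 10 other exchange factors and small GTPases did by edgeR, *Rac1*, a GTPase that Vav1 loads, having -0.077 and *Cdc42* 0.036.

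The ubiquitin ligases and negative regulators held 4 of the 16 genes, out of 10 tested, where 7.34% of all genes had such a p. *Sla*, the adaptor SLAP that helps to degrade antigen receptor chains, had the smallest p of all the lists. It was at 112.4 and 103.1 CPM with vehicle and 83.9 and 91.3 with 5D, a log2 fold change of -0.30 (SE 0.074, edgeR adjusted p = 0.363), and without vehicle replicate 2 this became -0.36 with an adjusted p of 0.0167. Without each of the others it ranged from -0.36 to -0.24, at edgeR adjusted p of 0.236 to 0.651. *Ubash3a*, a suppressor of receptor signals, was at 32.9 and 37.0 against 27.8 and 27.8 CPM (log2 fold change -0.33, edgeR adjusted p = 0.550), whereas its paralog *Ubash3b*, a phosphatase of Syk family kinases, was at 111.5 and 107.9 against 119.8 and 124.6 (log2 fold change 0.16, edgeR adjusted p = 0.621). The ligase *Cbl* was at 41.6 and 43.7 against 37.3 and 35.7 CPM (log2 fold change -0.22, edgeR adjusted p = 0.641). *Dok2*, an adaptor that recruits a Ras inhibitor, had the highest mean CPM of this list and a log2 fold change of -0.085 (edgeR adjusted p = 0.752). Of the ITAM receptor subunits and their kin, *Hcst*, the adaptor DAP10, was at 34.1 to 36.1 CPM in all libraries and *Cd3g* at 21.6 to 24.6, while *Tyrobp* had 4 and 10 counts with vehicle and 2 and 0 with 5D.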

How the data were processed

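The authors prepared cDNA libraries with a low-input kit, sequenced them on an Illumina NextSeq system, aligned the reads with STAR to mm10 using GENCODE M21, and quantified them in Partek. They deposited estimated counts per gene before normalization, of which 54.9% to 58.4% in a library were whole within 0.001. The submitters' processing notes name STAR 2.6.1 and CASAVA 1.8.2. The quantification model and the use of strand are not given in the sources used here.

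Here the estimated counts were rounded, scaled by the upper quartile over all genes, and filtered, keeping a gene if its normalized counts averaged 1 or more and summed to 10 or more, which left out 4904 of 22554 genes. Groups were compared with the quasi-likelihood test of edgeR 4.0.16 in R 4.3.3, two-sided, and p-values of the 17650 tested genes were corrected by Benjamini-Hochberg. The authors' own Gene Set Analysis was not run. An SE is the size of the log2 fold change over the root of its F statistic. Alternatives used TMM, DESeq2 1.42.0 size factors and its Wald test, limma 3.58.1 (voom), no filter, filterByExpr, a replicate block, thinned libraries and each library left out. Lengths and coordinates came from GENCODE M21, and near-identical genes from BLAST 2.17.0. The exact permutation test used scipy 1.17.1, and figures matplotlib 3.10.9. The code was tested on simulated counts of 5D against vehicle, with 200 of 17650 genes changed. Of the genes changed 2-fold 68.3% were called, and of those changed 3-fold 89.6%. In all, 157 changed genes and 15 unchanged genes were called. The changed genes were not drawn from those of lowest level, so these rates do not cover such genes.

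The genes described and the pathway and marker lists were chosen with earlier results of these data known. Named are the 9 genes, *Zap70* and *Syk*, and from each pathway list the gene highest in CPM, the gene with the smallest p and each gene at an unadjusted p under 0.05. T cell receptor subunits, ILC2 markers, *Lat2* and further family members were named after their values were seen. Some genes that this rule names are left unreported.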

Additional observations from a re-analysis of the deposited data

How the results depend on the processing

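Each of the 9 genes was refitted under 12 alternatives, 108 values in all, of which 100 kept their sign and their side of an adjusted p of 0.05 and 2, *Prkca* and *Lck* under DESeq2, kept their sign with no adjusted p given. The 6 that turned all came from leaving out a library: *Plcg2* ranged from -0.42 to 0.013, *Lcp2* from -0.029 to 0.025 (-0.0030 without vehicle replicate 1 and -0.00074 without vehicle replicate 2) and *Lck* from -0.23 to 0.059, with 0.013 without vehicle replicate 1. None of the 9 was called at an adjusted p in any that gave one. The count of the 9 that were lower at an unadjusted p under 0.05 was 1, *Vav1*, with limma-voom and 1, again *Vav1*, with the replicate block (p of 0.0448 and 0.0466, edgeR and limma adjusted p of 0.658 with voom and 0.644 with the block), and 0 to 1 without a library (*Lat* without vehicle replicate 1, *Plcg2* without vehicle replicate 2 and *Vav1* without 5D replicate 1). The median of the 9 ranged from -0.12 to -0.0030 without a library. Of the pathway genes, 16 were called when the unadjusted p set the threshold, and 0 to 3 at an adjusted p without a library: *Itpr2*, *Plcl2* and *Zap70* without vehicle replicate 1 and *Sla* without vehicle replicate 2. Those lower at an unadjusted p were 5 with DESeq2 and 4 to 11 without a library, and those higher 2 to 5 without a library. Over all genes, the 17 calls at an adjusted p became 46 with no filter, 26 with filterByExpr, 58 with DESeq2, 32 with limma-voom, 41 with the replicate block, 6 in thinned libraries and 15 to 180 without a library, the 180 without vehicle replicate 1. The cause was not tested. The deviations of same-numbered libraries from their group means correlated at 0.016 over 12330 genes. With 2 libraries a group this cannot tell whether same-numbered libraries shared a source. Where a library is left out, the lone library of its group is assumed to vary like the other group. Levels per kb moved with the length used, most for *Prkcq* (13.5 by the longest transcript) and *Plcg1* (9.80), while differences between groups in the ratios did not depend on it. With 2 libraries a group, the intervals were widest for *Lck*, *Prkca* and *Plcg2*.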
